A study of Mus musculus with 19 samples.

Results

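The change from day 4 to day 7 was examined in differentiating P19CL6 cells, as the set of 827 genes that appear in both the authors' deposited table for day 4 and that for day 7, joined on the gene identifier. These are 827 of the 4213 genes that appear in any of the deposited tables. They make up 46.5% of the 1779 genes of the day 4 table and 48.2% of the 1717 genes of the day 7 table. P19CL6 cells are a mouse line derived from an embryonal carcinoma, whose cells divide undifferentiated and can give rise to contracting cardiac muscle. The cultures at day 4 and day 7 carried no genetic change named in the labels, and the labels give no treatment beyond the day of differentiation. There were 4 libraries at each of these days, made by digital gene expression profiling, which counts 1 short tag from each transcript. All libraries come from 1 cell line, and nothing in the labels says whether the replicates were separate cultures.

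Mesoderm forms in the embryo as cells leave the primitive streak. The cells first express streak regulators such as Mixl1 and Mesp1, and those destined for the segmented body axis then express presomitic genes such as Tbx6, whose levels fall again as the tissue matures. Mesodermal cells that spread, contract or become smooth muscle build actin bundles, and genes such as Tagln and Flnc mark that machinery. Hox genes are switched on in the order of their position in the cluster, from anterior to posterior.

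Each deposited table sets 1 later day against day 1 and gives 1 mean per day, so a gene's level at days 4 and 7 is a mean over 4 libraries and no spread between libraries can be computed. No test between the days was therefore possible. Levels are the authors' TPM, a gene's tags scaled to a common library total. Each fold is a ratio of tag sums, and the range given beside it is the exact 95% interval, which covers counting error only. A gene is called higher, or said to rise, where its level at day 7 was at least 2-fold that at day 4, and called lower, or said to fall, at the same size in the other direction. This is a limit of size and not a test. The libraries of a day held about 23444622 tags in all at day 4 and 23350204 at day 7, so that 3 tags, taken as the floor for a gene at 0, correspond to 0.128 TPM at either day. The markers of this comparison were chosen with earlier results of these data known, so their levels are no check of the labelled days. Tbx6 stood at 669 TPM at day 4 and 153 TPM at day 7, Tagln at 7.21 and 164 TPM, and Flnc at 18.8 and 236 TPM. The 18S ribosomal RNA entry Rn18s stood at 3928 TPM at day 4 and is not in the day 7 table. Its part in the results was not tested. In bulk cultures, fewer cells of a type and less RNA per cell cannot be told apart.

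Most of the 827 genes moved little between the days. A fold could be computed for 825 genes, and 482 of them (58.4%) lay within 1.5-fold. There were 88 higher genes, 10.7% of the 825, and 84 lower genes, 10.2%. The median log2 fold was 0.01 and the quartiles were -0.44 and 0.45. At larger sizes, 28 genes rose at least 4-fold and 14 fell by that much, and 11 rose at least 8-fold against 1 that fell at least 8-fold. The remaining 2 genes, Trp73 and C1ql3, were at or under the floor on both days and have no fold.

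**Figure D1:**
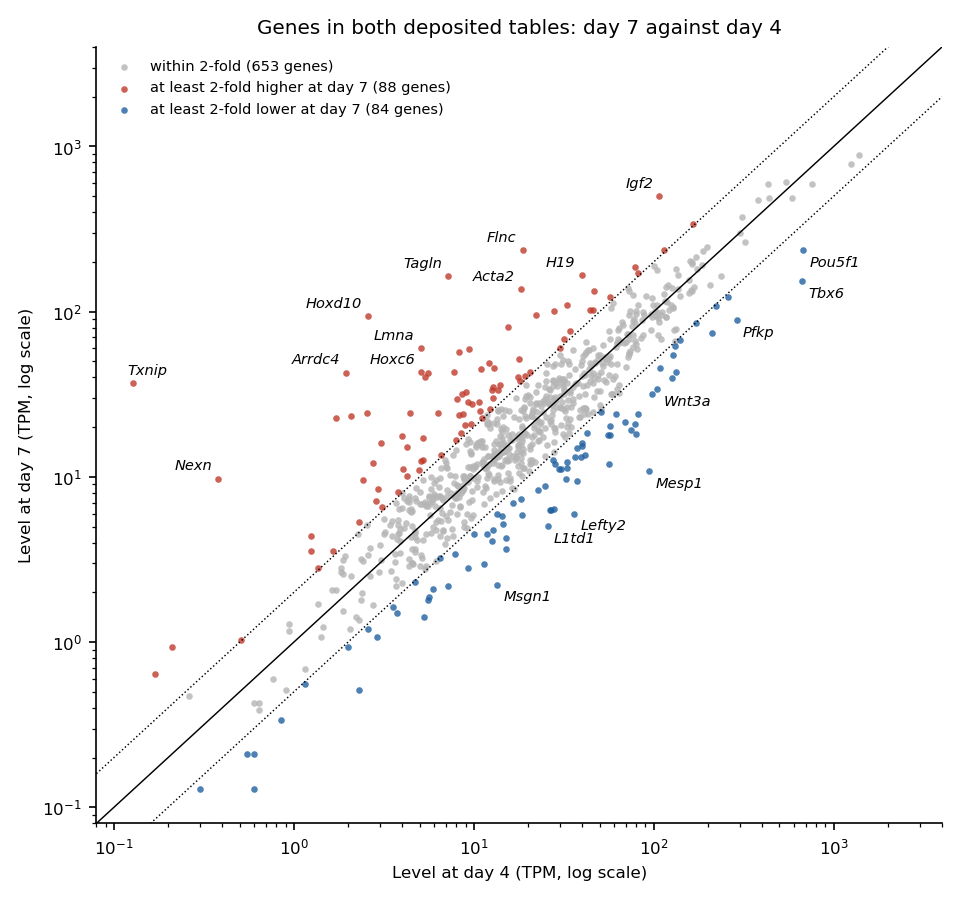
Level of each of the 825 genes at day 4 (x axis, TPM, log scale) and at day 7 (y axis, TPM, log scale), with the solid line at equal levels and dotted lines at 2-fold. The 88 higher genes in red include Tagln, Flnc and Hoxd10, the 84 lower genes in blue include Mesp1 and Tbx6, and Txnip at 0 tags at day 4 is drawn at the floor of 0.128 TPM.

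The joining rule shapes these counts. Every gene of either deposited table differed at least 2-fold from day 1, so a gene that was near its day 1 level on 1 of the days is not among the 827. In each table the higher of the 2 days compared also had a mean of at least 13 tags. A gene near 0 at day 1 and under that mean at day 4 or day 7 is therefore missing too. Msgn1 at day 7 (52 tags over the 4 libraries), and Hand1 (54) and Hoxd10 (61) at day 4, lie close to this limit. There were 481 genes above day 1 on both days and 333 below it on both days. Only 13 lay on opposite sides, and such a gene differs at least 4-fold between days 4 and 7 by construction. The 11 that were below day 1 at day 4 and above it at day 7 were Rhoc, Arf2, Dtx4, Mbnl1, Lmna, Flnc, Tnfrsf12a, Arrdc4, Tagln, Nexn and Txnip. The other two, Ankrd37 and S1pr3, were above day 1 at day 4 and below it at day 7. Of the 11 rises of at least 8-fold, 9 are such genes. Without the genes on opposite sides, 17 genes rose at least 4-fold and 12 fell by that much, and 2 rose at least 8-fold against 1 that fell.

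**Figure D2:**
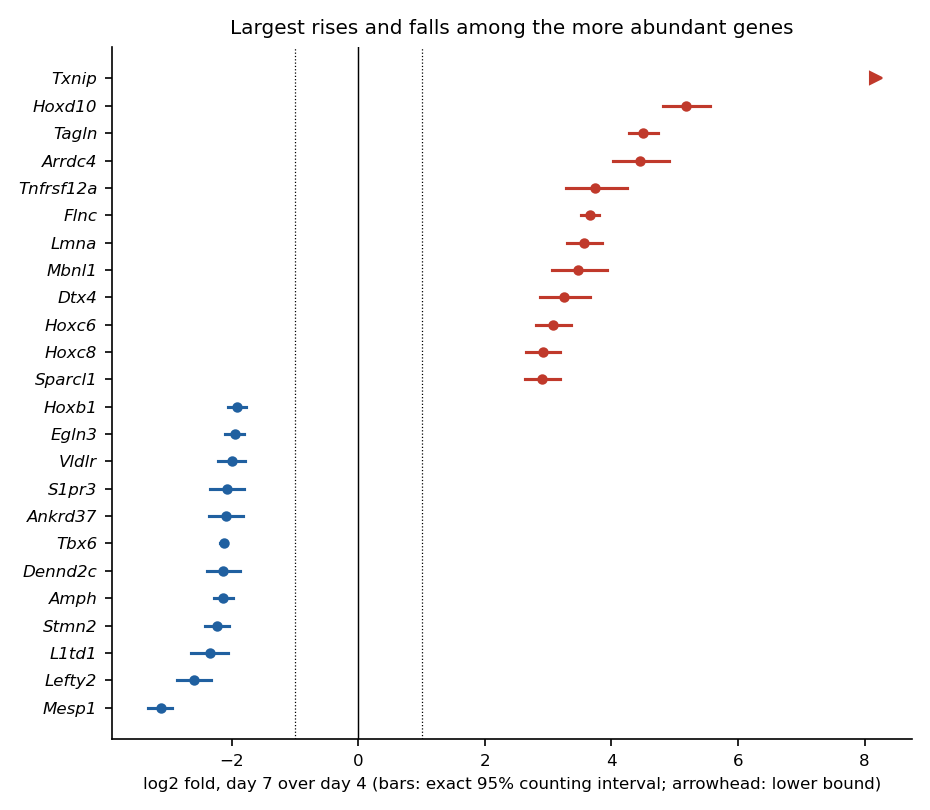
Log2 fold, day 7 over day 4 (x axis), of the 12 steepest rises and the 12 steepest falls, taken from genes whose higher level was at or above the median of 22.7 TPM. Bars are exact 95% counting intervals, which lie beyond the dotted 2-fold lines for all the genes drawn with a bar, and the arrowhead of Txnip is a lower bound against the floor.

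Primitive streak genes fell or stayed within 2-fold. Of 31 genes on the list, 12 were in both tables, of which 6 were lower, 0 were higher and 6 were neither. Their median log2 fold was -0.89, beside 0.01 over all joined genes. Mesp1 (gene 17292), a transcription factor of the earliest cardiac mesoderm, gave the steepest fall of the whole comparison. It went from 2212 tags summed over the 4 libraries of day 4 to 252 over those of day 7, that is from 94.3 TPM to 10.8 TPM (8.74-fold lower, 7.67 to 10.00). Lefty2, an extracellular antagonist of Nodal, fell from 36.2 TPM to 6.0 TPM (6.04-fold lower, 5.05 to 7.27). Cdx1, a homeobox regulator of posterior identity, fell from 32.4 TPM to 9.68 TPM (3.35-fold lower, 2.88 to 3.90), and Pdgfra, a receptor of mesodermal cells, fell from 25 TPM to 8.87 TPM (2.82-fold lower, 2.40 to 3.32). The streak homeobox gene Mixl1 fell from 221 TPM to 109 TPM (2.03-fold lower, 1.94 to 2.13), and the apelin receptor gene Aplnr from 50.97 TPM to 24.6 TPM (2.07-fold lower, 1.87 to 2.29). The intervals of both reach below 2-fold. The members that stayed within 2-fold were Wnt5b, Gsc, Cdx2, Lmo2, Sp8 and Wnt5a. Cdx2, which acts beside Cdx1, went from 235 TPM to 165 TPM (1.43-fold lower, 1.37 to 1.49), and Gsc, a homeobox gene of the organizer, from 15.1 TPM to 9.64 TPM (1.57-fold lower, 1.33 to 1.87). The non-canonical ligand gene Wnt5a went the other way, from 31.5 TPM to 51.01 TPM (1.62-fold higher, 1.48 to 1.78).

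The promoter of Mesp1 is shown because the gene fell the most and because Tbx6, a T-box factor, fell as well. It is the RefSeq sequence of build GRCm38.p6 at chr7:79793541-79793840, minus strand, from 250 bases before to 50 bases after the gene's start, printed along the gene. The core of the T-box site, AGGTGTG, was searched on both strands. Its match is in capitals, lies on the strand opposite to the gene, and begins at base 7 after the start.
Mesp1: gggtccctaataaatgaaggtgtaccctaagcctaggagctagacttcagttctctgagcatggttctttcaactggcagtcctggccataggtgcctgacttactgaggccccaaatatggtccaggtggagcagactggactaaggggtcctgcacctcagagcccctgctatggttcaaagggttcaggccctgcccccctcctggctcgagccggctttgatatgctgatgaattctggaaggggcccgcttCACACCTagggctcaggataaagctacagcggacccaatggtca
Of 27025 genes with such a window, 6.72% hold this core. A match is a description of letters and shows no binding, and a link between the falls of Mesp1 and Tbx6 was not tested. On the presomitic list 29 of 39 genes had a window (74.4%), and 2 of these 29 hold the core. Of the lower genes 63 had a window and 5 hold the core, or 7.94%. Of the higher genes 55 had a window and 0 hold it. With so many windows missing, these checks over the list and by direction are void.

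Among presomitic and paraxial mesoderm genes, falls outnumbered rises. Of 39 on the list, 19 were in both tables, with 9 lower, 2 higher and 8 neither, and a median log2 fold of -0.92. Tbx6 (gene 21389), the T-box regulator of paraxial mesoderm, went from 15690 tags summed over the 4 libraries of day 4 to 3566 over those of day 7, that is from 669 TPM to 153 TPM (4.38-fold lower, 4.23 to 4.55). Msgn1, a basic helix-loop-helix factor of the presomitic mesoderm, fell from 13.5 TPM to 2.23 TPM (6.05-fold lower, 4.50 to 8.28). The Notch ligand gene Dll3 fell from 97.98 TPM to 31.8 TPM (3.08-fold lower, 2.83 to 3.35), and the Notch feedback gene Nrarp from 69.6 TPM to 21.6 TPM (3.22-fold lower, 2.91 to 3.56). Ligands that maintain the posterior growth zone fell to a like degree: Wnt3a from 104 TPM to 33.96 TPM (3.07-fold lower, 2.84 to 3.33), and the Wnt agonist gene Rspo3 from 55.6 TPM to 18.03 TPM (3.08-fold lower, 2.76 to 3.45). Foxc1, a forkhead gene of paraxial mesoderm, fell from 9.26 TPM to 2.83 TPM (3.27-fold lower, 2.48 to 4.38). Snai1, a repressor of epithelial genes in cells leaving the streak, fell from 30.4 TPM to 11.1 TPM (2.73-fold lower, 2.36 to 3.16), and the Notch target gene Hes5 from 7.21 TPM to 2.18 TPM (3.30-fold lower, 2.40 to 4.61). Each of these 9 intervals lay beyond 2-fold.

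Other members, among them targets and inhibitors of the same signals, stayed within 2-fold or rose. The Wnt target genes Axin2 and Sp5 went from 128 TPM to 107 TPM and from 167 TPM to 141 TPM, both within 1.5-fold. Lfng, a glycosyltransferase that modifies Notch, went from 11.3 TPM to 11.9 TPM (1.05-fold higher, 0.887 to 1.25), and Cyp26a1, which degrades retinoic acid, from 71.4 TPM to 73.2 TPM (1.03-fold higher, 0.959 to 1.10). The intervals of Lfng and Cyp26a1 include no difference. Dusp6, a phosphatase that dampens FGF signalling, went from 132 TPM to 182 TPM (1.38-fold higher, 1.31 to 1.44). The Wnt-inactivating enzyme gene Notum rose from 9.81 TPM to 27.7 TPM (2.82-fold higher, 2.42 to 3.29), and the ligand gene Fgf17 from 8.27 TPM to 23.6 TPM (2.85-fold higher, 2.41 to 3.37). Among genes in 1 table only, Fgf8 stood at 57.9 TPM at day 4, and Pax3, a gene of somites and neural crest, at 44.8 TPM at day 7. The brachyury gene T stood at 701 TPM at day 4 and is not in the day 7 table, so no fold can be given for it.

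**Figure D3:**
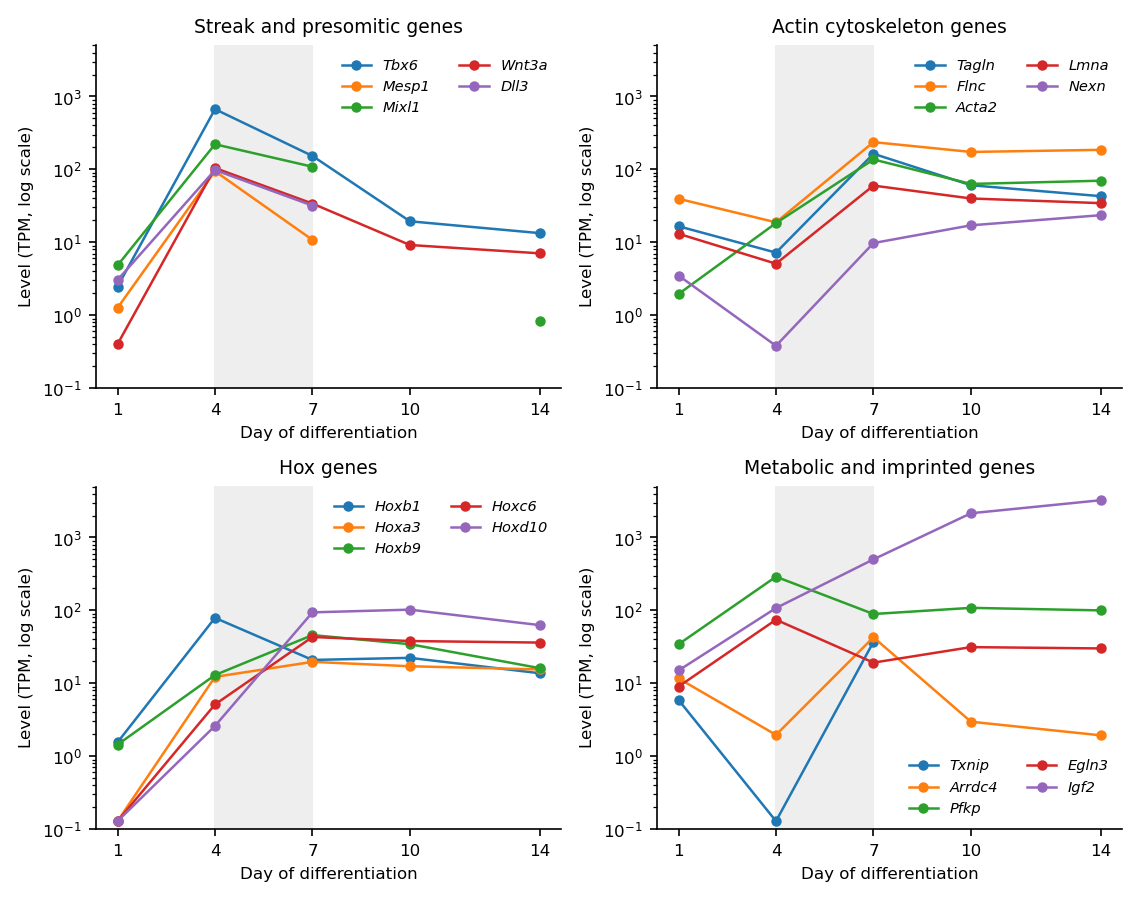
Level (y axis, TPM, log scale) by day of differentiation (x axis) for 20 genes in both tables, with a line broken where a day's table does not list the gene and values of 0 drawn at 0.128 TPM. The shaded span is the change from day 4 to day 7: Tbx6, Mesp1, Mixl1, Wnt3a and Dll3 fall across it, while Tagln, Flnc, Lmna and Nexn turn from a low at day 4 to a rise.

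Most of the few pluripotency genes in both tables fell further. Of 38 pluripotency genes, 7 were in both tables, with 5 lower, 1 higher and 1 neither, and a median log2 fold of -1.53. Pou5f1 (gene 18999), which encodes the core pluripotency factor Oct4, fell from 678 TPM to 235 TPM (2.89-fold lower, 2.80 to 2.98). The RNA-binding protein gene L1td1 fell from 25.8 TPM to 5.05 TPM (5.10-fold lower, 4.18 to 6.26), the kinase gene Pim2 from 133 TPM to 43 TPM (3.09-fold lower, 2.88 to 3.32), and the growth factor gene Gdf3 from 5.67 TPM to 1.88 TPM (3.01-fold lower, 2.13 to 4.34). Fgf5, a marker of the primed state that follows naive pluripotency, fell from 32.97 TPM to 11.4 TPM (2.89-fold lower, 2.51 to 3.34). The de novo methyltransferase gene Dnmt3b stayed within 2-fold, from 41.8 TPM to 25.7 TPM (1.63-fold lower, 1.47 to 1.81). Tbx3 was the higher member, from 12.4 TPM to 25.9 TPM (2.09-fold higher, 1.82 to 2.42). This T-box gene is active in limb and heart as well as in stem cells. Of 5 members in the day 4 table only, Slc2a3, Fgf4 and Klf5 were above day 1. The 2 below it included Sox2 at 22.4 TPM. Of 7 members in the day 7 table only, Mycn and Cdh1 were above day 1. The 5 below it included Lin28a at 216 TPM. None of these has a fold.

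Neural genes in both tables fell or stayed within 2-fold. Of 43 on the neural and neural crest list, 11 were in both tables, with 3 lower, 0 higher and 8 neither. Stmn2, a microtubule regulator of neurons, fell from 56.5 TPM to 12.03 TPM (4.70-fold lower, 4.13 to 5.36), and the hindbrain boundary gene Gbx2 from 13.5 TPM to 6.0 TPM (2.25-fold lower, 1.84 to 2.76). Neurod1, a neuronal differentiation factor, had 7 tags at day 4 and 0 at day 7, which is at least 2.32-fold lower against the floor. The adhesion gene Ncam1 went from 14.2 TPM to 25.8 TPM (1.82-fold higher, 1.59 to 2.09), short of 2-fold. The retinoid-binding protein genes Crabp1 and Crabp2 went from 33.99 TPM to 48.1 TPM and from 41.8 TPM to 55.3 TPM. With the abundance limit of the median, 1 neural gene was lower. In the day 7 table only there were 8 neural genes, of which 5 were above day 1: Sox11 at 274 TPM, Nes at 177 TPM, Sox9 at 9.55 TPM, Nr2f2 at 9.08 TPM and Irx3 at 5.48 TPM.

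Some actin cytoskeleton genes were among the steepest rises. Of 42 genes on the smooth muscle and actin cytoskeleton list, 6 were in both tables, with 3 higher, 0 lower and 3 neither. Among the higher members, Tagln and Flnc are markers chosen with earlier results known, so the count is no independent support. The median log2 fold of 1.47 lies between Actn1 at 0.05 and Acta2 at 2.90, and no member is near it. Tagln (gene 21345), an actin-bundling protein of smooth muscle, went from 169 tags summed over the 4 libraries of day 4 to 3825 over those of day 7, that is from 7.21 TPM to 164 TPM (22.7-fold higher, 19.5 to 26.7). Flnc (gene 68794), a filamin that crosslinks actin in muscle, went from 440 tags summed over the 4 libraries of day 4 to 5521 over those of day 7, that is from 18.8 TPM to 236 TPM (12.6-fold higher, 11.4 to 13.9). Both lay below day 1 at day 4 and above it at day 7, and the joining rule alone sets such genes at least 4-fold apart. Acta2, the smooth muscle actin gene, was above day 1 on both days and rose from 18.3 TPM to 137 TPM (7.46-fold higher, 6.74 to 8.27). The other three members stayed within 1.5-fold: the actin crosslinker gene Actn1 went from 175 TPM to 181 TPM (1.04-fold higher, 0.991 to 1.08), the LIM protein gene Fhl1 from 45.9 TPM to 42.7 TPM (1.07-fold lower, 0.985 to 1.17), and the membrane-binding protein gene Anxa2 from 56.3 TPM to 52.4 TPM (1.07-fold lower, 0.992 to 1.16). These 3 intervals include no difference. In the broader pathway named regulation of actin cytoskeleton, 4 of 26 genes were higher and 4 lower, with a median log2 fold of -0.17.

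A further 11 members were in 1 table only and have no fold. The 7 in the day 7 table were all above day 1 there. They were Tagln2 at 407 TPM, Csrp1 at 329 TPM, Myl9 at 103 TPM, Lgals1 at 88.9 TPM, the calponin gene Cnn1 at 77.3 TPM, Tpm2 at 12.6 TPM and Fhl2 at 10.9 TPM. The 4 in the day 4 table were all below day 1 there: Vcl at 105 TPM, Cald1 at 21.8 TPM, Lima1 at 2.99 TPM and S100a6 at 1.32 TPM. Outside the list, Nexn, Lmna and Rhoc are among the genes on opposite sides of day 1, for which the join sets at least 4-fold. Nexn and Rhoc were chosen after their values were seen. Nexn, an actin-binding protein of muscle, went from 9 tags summed over the 4 libraries of day 4 to 228 over those of day 7 (25.4-fold higher, 13.2 to 56.3). Lmna, the gene of the nuclear lamina protein lamin A, rose from 5.08 TPM to 59.9 TPM (11.8-fold higher, 9.78 to 14.4), and the small GTPase gene Rhoc from 7.81 TPM to 43.04 TPM (5.51-fold higher, 4.71 to 6.49).

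Promoters of this list are shown because serum response factor, which binds the CArG box, is known as a regulator of smooth muscle actin genes. The box was searched on both strands as CC, 6 letters of A or T, and GG. Of the 36 list members with a RefSeq window, 8 hold it, or 22.2%, beside 1.81% of the 27025 genes. The 8 were Cnn2, Fhl1, Fhl2, Lima1, Myl6, Myl9, Srf and Vcl. Fhl1 is the only one of them in both tables, and it stayed within 1.5-fold. Of the higher genes 55 had a window and 2 of them hold the box, and of the lower genes 63 had a window and 2 hold it. Windows covered 62.5% and 75% of these genes, so the check by direction is void, and the list's share says nothing of the change from day 4 to day 7. The windows of Acta2 and Flnc do not hold these exact letters. Tagln had no window and was not searched. The search allowed no G or C among the 6 letters, so variants of the box were not looked for. The Acta2 window holds ccctatatgg and ccttgtttgg, each of which has a G or C among the 6. The sequences below are of build GRCm38.p6, with the box in capitals. Acta2 is at chr19:34255324-34255623, minus strand, Myl9 at chr2:156775214-156775513, plus strand, with the box beginning 161 bases before the start, and Fhl1 at chrX:56779433-56779732, plus strand, with the box beginning 102 bases before the start.
Acta2: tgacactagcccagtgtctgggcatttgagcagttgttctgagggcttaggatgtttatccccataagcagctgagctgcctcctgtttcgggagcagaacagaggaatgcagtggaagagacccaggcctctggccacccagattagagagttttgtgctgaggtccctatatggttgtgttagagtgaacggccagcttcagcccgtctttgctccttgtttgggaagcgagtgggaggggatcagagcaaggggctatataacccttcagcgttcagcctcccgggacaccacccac
Myl9: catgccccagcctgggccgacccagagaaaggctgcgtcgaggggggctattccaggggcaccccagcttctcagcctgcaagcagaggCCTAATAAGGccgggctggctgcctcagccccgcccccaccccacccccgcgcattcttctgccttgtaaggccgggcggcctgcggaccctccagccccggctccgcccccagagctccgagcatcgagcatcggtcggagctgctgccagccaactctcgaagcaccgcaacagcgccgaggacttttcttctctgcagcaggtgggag
Fhl1: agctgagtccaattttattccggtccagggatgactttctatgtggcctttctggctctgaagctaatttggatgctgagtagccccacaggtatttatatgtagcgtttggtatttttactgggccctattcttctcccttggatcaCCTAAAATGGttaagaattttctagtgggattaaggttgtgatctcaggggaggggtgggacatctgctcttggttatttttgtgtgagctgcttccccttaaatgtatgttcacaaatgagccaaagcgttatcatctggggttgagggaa
No match says only that the letters are not in this window.

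Among Hox genes, middle and posterior members gave most of the rises. In both tables there were 18 Hox genes, of which 9 were higher, 1 was lower and 8 were neither. Their summed level went from 240.1 TPM at day 4 to 477 TPM at day 7. Of the 10 in paralog groups 1 to 4, 2 were higher and 1 was lower, with a median log2 fold of 0.69. Of the 7 in groups 5 to 9, 6 were higher, with a median of 1.90. The one gene of groups 10 to 13, Hoxd10, went from 61 tags summed over the 4 libraries of day 4 to 2193 over those of day 7, that is from 2.60 TPM to 93.9 TPM (36.1-fold higher, 27.99 to 47.4). Across the 18 genes, paralog group number and log2 fold had a Spearman correlation of 0.81. This is a description over genes of the same libraries.

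The anterior gene Hoxb1 was the one that fell, from 78.9 TPM to 20.9 TPM (3.78-fold lower, 3.42 to 4.18). Its neighbours did not share a direction: Hoxb2 went from 18.2 TPM to 14.2 TPM (1.28-fold lower, 1.11 to 1.48), Hoxb3 from 14.9 TPM to 25.4 TPM (1.70-fold higher, 1.49 to 1.95) and Hoxb4 from 12.9 TPM to 12.7 TPM (1.02-fold lower, 0.866 to 1.201). In the middle of the clusters Hoxa5 rose from 8.57 TPM to 31.9 TPM (3.73-fold higher, 3.18 to 4.38), Hoxb6 from 5.08 TPM to 12.5 TPM (2.46-fold higher, 1.98 to 3.08) and Hoxb9 from 12.97 TPM to 45.8 TPM (3.53-fold higher, 3.11 to 4.03). The 3 Hoxc genes in both tables all rose: Hoxc5 from 3.07 TPM to 15.97 TPM (5.20-fold higher, 4.03 to 6.79), Hoxc6 from 5.12 TPM to 43.1 TPM (8.43-fold higher, 6.97 to 10.3) and Hoxc8 from 5.59 TPM to 42.3 TPM (7.56-fold higher, 6.30 to 9.15). By cluster, 2 of 4 Hoxa, 2 of 7 Hoxb, 3 of 3 Hoxc and 2 of 4 Hoxd genes were higher. In the day 7 table only were Hoxa7 at 11.01 TPM, Hoxa10 at 23.8 TPM, Hoxa11 at 15.6 TPM and Hoxc10 at 9.08 TPM, besides Hoxb5 and Hoxa9 at 3.13 and 2.53 TPM. Hoxb13 was in the day 4 table only, at 5.12 TPM.

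**Figure D4:**
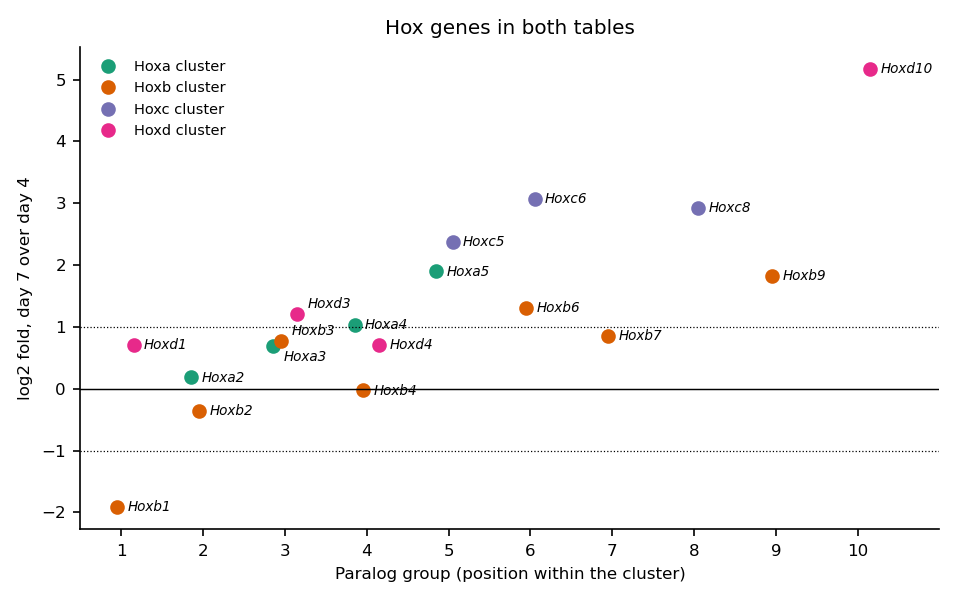
Log2 fold, day 7 over day 4 (y axis), of the 18 Hox genes in both tables by paralog group (x axis) and cluster (colour), with dotted lines at 2-fold. Hoxb1 at -1.92 and Hoxd10 at 5.17 are the lowest and the highest.

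Most Wnt pathway genes in both tables stayed within 2-fold. Of 53 on the list, 14 were in both tables, with 2 higher, 2 lower and 10 neither, and a median log2 fold of -0.07, close to the 0.01 of all joined genes. Over all 825 genes with a fold, 10.7% were higher and 10.2% lower, so these counts are near the general share. The ligand gene Wnt6 rose from 12.8 TPM to 34.99 TPM (2.73-fold higher, 2.39 to 3.13), while Wnt3a fell as given above and Wnt5b went from 129.8 TPM to 77 TPM (1.69-fold lower, 1.59 to 1.79). The receptor gene Fzd10 went from 309.6 TPM to 372 TPM (1.201-fold higher, 1.16 to 1.24). Lef1, a nuclear partner of β-catenin, stood at 53.5 TPM in the day 4 table only, and the receptor gene Fzd2 at 102 TPM in the day 7 table only.

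Notch pathway genes gave 4 lower, 1 higher and 4 neither among 9 in both tables. The receptor gene Notch1 fell from 109 TPM to 45.6 TPM (2.38-fold lower, 2.21 to 2.56), together with Dll3, Hes5 and Nrarp. Hes1, another Notch target, stayed within 1.5-fold, from 62.6 TPM to 48.3 TPM. Dtx4, a ubiquitin ligase of the Deltex family, was the exception and rose from 2.56 TPM to 24.4 TPM (9.54-fold higher, 7.30 to 12.7). It is one of the 13 genes on opposite sides of day 1.

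The ligand genes Bmp2 and Bmp4 rose, and Lefty2 and Gdf3 of the Nodal branch fell. Of 9 BMP and Nodal pathway genes in both tables, 3 were higher, 2 lower and 4 neither. Bmp4 rose from 13.99 TPM to 35.97 TPM (2.57-fold higher, 2.26 to 2.93), Bmp2 from 5.25 TPM to 12.6 TPM (2.41-fold higher, 1.94 to 3.00), and the BMP target gene Id2 from 165 TPM to 339 TPM (2.05-fold higher, 1.98 to 2.14). The lower bound for Bmp2 and Id2 was just under 2-fold. Lefty2 and Gdf3 were the lower genes. Lefty1 and Fst, an activin-binding protein gene, were in the day 4 table only, at 34.4 and 679 TPM. The BMP target Id1 was in the day 7 table only, at 92.8 TPM, as was the BMP antagonist gene Nog at 11.6 TPM.

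Among 10 FGF pathway genes in both tables, 3 were higher and 2 lower. The ligand genes Fgf5 and Fgf15 fell and Fgf17 rose, with Fgf15 going from 7.89 TPM to 3.43 TPM (2.30-fold lower, 1.76 to 3.03). The receptor gene Fgfr4 rose from 4.95 TPM to 11.1 TPM (2.23-fold higher, 1.79 to 2.80), and the immediate early gene Egr1, an FGF and serum response gene, from 12.7 TPM to 33.7 TPM (2.66-fold higher, 2.33 to 3.05). None of the 4 retinoic acid pathway genes in both tables passed 2-fold. Of 5 hedgehog and cilium genes, 2 were higher, both of them co-receptors of hedgehog. They were Boc, from 6.36 TPM to 24.2 TPM (3.81-fold higher, 3.18 to 4.60), and Gas1, from 31.6 TPM to 68.5 TPM (2.17-fold higher, 1.99 to 2.37). The ciliary motor genes Kif3a and Dync2h1 and the polycystin gene Pkd1 stayed within 2-fold, and Kif3a went from 43.9 TPM to 45.2 TPM (1.03-fold higher, 0.946 to 1.12). The TGF-β list had 2 genes in both tables, Tgfb1 from 21.1 TPM to 17.6 TPM (1.2-fold lower, 1.05 to 1.37) and Tgfbr3 from 7.21 TPM to 5.52 TPM (1.30-fold lower, 1.03 to 1.65). Among its members in the day 7 table only, and above day 1 there, were the signal transducer gene Smad3 at 52.3 TPM, Cyr61 at 44.9 TPM and the ligand gene Tgfb2 at 20.9 TPM.

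Genes of lateral plate and limb mesoderm were higher or level. Of 38 on the list, 6 were in both tables, with 4 higher, 0 lower and 2 neither, and a median log2 fold of 1.07. Besides Bmp4 and Tbx3, Hand1, a factor of heart and extraembryonic mesoderm, rose from 2.30 TPM to 5.35 TPM (2.32-fold higher, 1.68 to 3.26), and Snai2, a factor of migrating mesenchyme, from 3.11 TPM to 6.60 TPM (2.12-fold higher, 1.59 to 2.84). The intervals of Tbx3, Hand1 and Snai2 reach below 2-fold, and 2 genes were higher when only those at or above the median abundance were kept. The homeobox gene Msx1 went from 159 TPM to 204 TPM (1.28-fold higher, 1.23 to 1.34). In the day 7 table only, Twist1 stood at 75.9 TPM, Prrx1 at 5.65 TPM, Gata4 at 3.43 TPM and Isl1 at 3.21 TPM.

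Few markers of heart muscle were in the tables of these days. Of 34 cardiac transcription factor and sarcomere genes, 2 were in both tables and neither passed 2-fold. The sodium-calcium exchanger gene Slc8a1 went from 9.13 TPM to 9.55 TPM (1.05-fold higher, 0.863 to 1.27) and the calcium channel gene Cacna1c from 3.88 TPM to 4.84 TPM (1.25-fold higher, 0.938 to 1.66). Acta1, Tnni1, Nppb and Myl4 were in the day 7 table only, at 10.7, 5.57, 3.25 and 2.48 TPM, and the defining gene Tnnt2 is in neither the day 4 nor the day 7 table. Tnni3 and Tnnt1 were in the day 4 table only, at 19.4 and 13.99 TPM. Acta1, Tnni1 and Tnnt1 are also known from skeletal muscle. Of the 15 genes on the skeletal muscle list, which does not hold these, 0 were in either table.

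Vessel, epithelial and matrix genes were few in both tables. Of 4 endothelial and blood genes, 2 were higher: the neuropilins Nrp2, from 8.32 TPM to 56.7 TPM (6.82-fold higher, 5.87 to 7.97), and Nrp1, from 10.7 TPM to 28.4 TPM (2.66-fold higher, 2.30 to 3.09). Neuropilins are receptors for semaphorins and VEGF in neurons as well as vessels. The blood regulator gene Lmo2 stayed within 1.5-fold, from 73.3 TPM to 68.3 TPM (1.07-fold lower, 1.00 to 1.15). The receptor gene Kit went from 41.3 TPM to 26.2 TPM (1.58-fold lower, 1.42 to 1.75). Of the 7 endothelial and blood genes in the day 7 table only, 6 were above day 1. Among these was Cdh5, a defining gene of endothelium, at 6.98 TPM. The 1 below day 1 was Flt1, at 0.86 TPM. The simple-epithelium keratin genes rose: Krt18 from 22.1 TPM to 95.9 TPM (4.33-fold higher, 3.94 to 4.78) and Krt8 from 44.5 TPM to 103 TPM (2.31-fold higher, 2.15 to 2.49), with Krt19 from 4.09 TPM to 7.49 TPM (1.83-fold higher, 1.42 to 2.37). These 3 genes make up all members of both the endoderm and the epithelial lists that were in both tables, and keratin genes have near-identical copies among which tags may have been shared. Of the endoderm markers, Sox17, Foxa2, Afp and Ttr are in neither the day 4 nor the day 7 table.

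Most matrix genes in both tables stayed within 2-fold, as did most joined genes, of which 20.8% passed 2-fold in either direction. Of 44 on the list, 7 were in both tables, with 1 higher, 1 lower and 5 neither. Mfap4, a microfibril protein gene, rose from 10.96 TPM to 45.3 TPM (4.13-fold higher, 3.60 to 4.76). The laminin chain gene Lamb1 went from 171 TPM to 85.5 TPM (2.00-fold lower, 1.90 to 2.12), at the limit itself, and its partner Lama1 from 20.6 TPM to 11.9 TPM (1.72-fold lower, 1.48 to 2.00). Fibronectin, Fn1, went from 323 TPM to 264 TPM (1.23-fold lower, 1.19 to 1.27). The matrix genes of the day 7 table alone numbered 15, of which 14 were above day 1. Among them were the collagen IV genes Col4a1 at 73.8 TPM and Col4a2 at 62.6 TPM, and the metalloproteinase inhibitor gene Timp3 at 58.9 TPM.

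**Figure D5:**
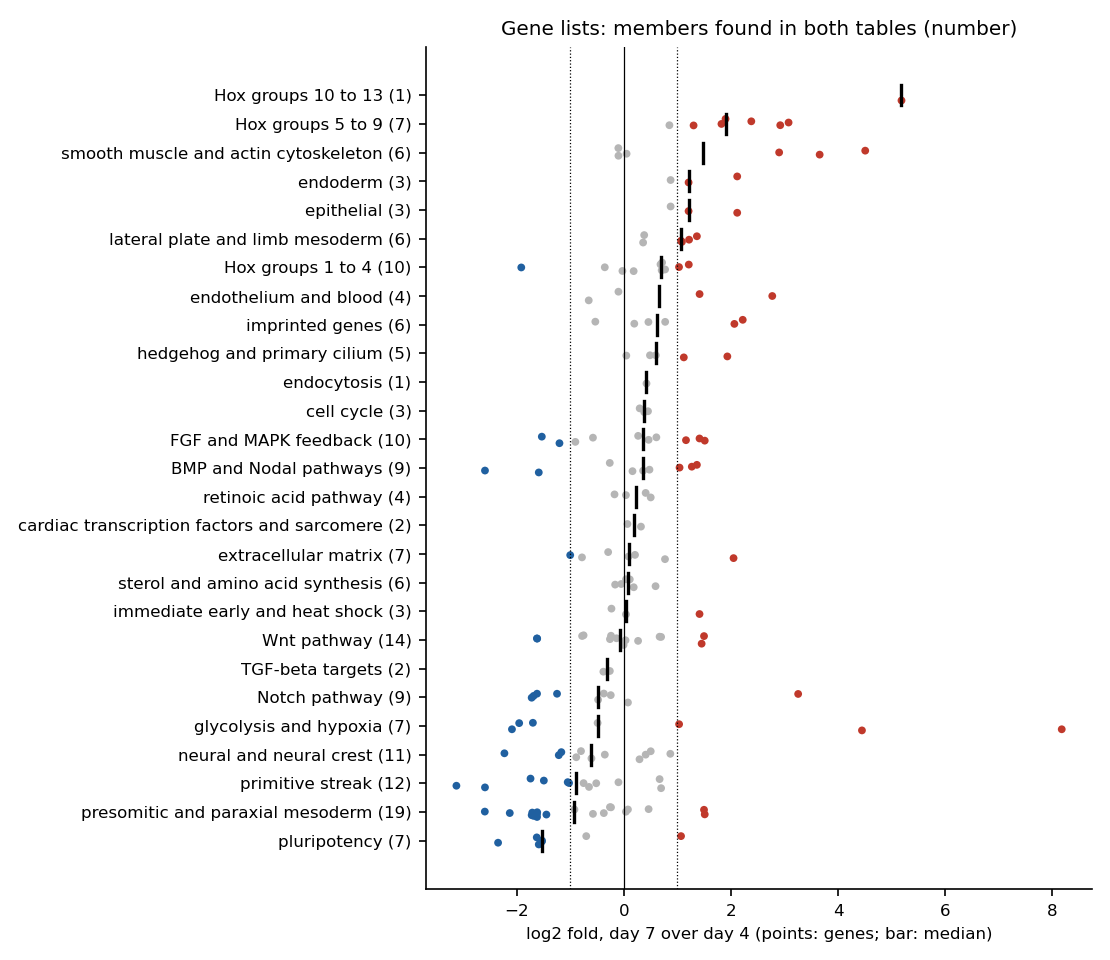
Log2 fold, day 7 over day 4 (x axis), of each list member found in both tables, by list, with the number of such members in brackets and the list median as a black bar. Pluripotency, presomitic and primitive streak genes have the lowest medians (-1.53, -0.92 and -0.89), and Hox groups 5 to 9 and the actin cytoskeleton list are among the highest (1.90 and 1.47). The actin cytoskeleton list includes the markers Tagln and Flnc, and no member of it lies near its median.

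A pair of arrestin-family genes that respond to glucose gave steep rises from low levels. Txnip (gene 56338), an inhibitor of glucose uptake and of thioredoxin, had 0 tags over the 4 libraries of day 4 and 864 over those of day 7, which is 37.0 TPM and at least 289-fold higher against the floor. This was the largest rise of the comparison. Its relative Arrdc4 (gene 66412) went from 46 tags summed over the 4 libraries of day 4 to 998 over those of day 7, that is from 1.96 TPM to 42.7 TPM (21.8-fold higher, 16.2 to 29.95). At day 1 Txnip stood at 5.91 TPM and Arrdc4 at 11.7 TPM, above the level of day 4 and below that of day 7 for both. The join sets such genes at least 4-fold apart. Arrdc4 stood at 2.97 TPM at day 10 and 1.93 TPM at day 14, and Txnip is not in the tables of those days.

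Ankrd37, Egln3 and Pfkp, genes known to respond to low oxygen, fell over the same interval. Of 42 glycolysis and hypoxia genes, 7 were in both tables, with 3 lower, 3 higher and 1 neither. Ankrd37 lay on opposite sides of day 1 on the 2 days, and the join sets such genes at least 4-fold apart. This target of hypoxia-inducible factor fell from 27 TPM to 6.34 TPM (4.26-fold lower, 3.56 to 5.13). Egln3, an oxygen-sensing prolyl hydroxylase and itself such a target, fell from 74.4 TPM to 19.2 TPM (3.88-fold lower, 3.49 to 4.31). The phosphofructokinase gene Pfkp fell from 289.5 TPM to 89.1 TPM (3.25-fold lower, 3.09 to 3.41). The higher genes were Txnip, Arrdc4 and the muscle enolase gene Eno3, from 11.1 TPM to 22.7 TPM (2.04-fold higher, 1.76 to 2.38). The genes in 1 table only split by day. There were 14 in the day 4 table alone, all above day 1, and 7 in the day 7 table alone, all below day 1. The first group held the glucose transporter genes Slc2a3 at 675 TPM and Slc2a1 at 347 TPM, Egln1 at 194 TPM, Pdk1 at 133 TPM and Vegfa at 37.6 TPM. The second held the enzyme genes Ldha at 2520.3 TPM, Aldoa at 423 TPM, Pgam1 at 353 TPM and Tpi1 at 275 TPM.

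The imprinted growth genes Igf2 and H19, which are neighbours and share enhancers, both rose more than 4-fold. Igf2 (gene 16002), a fetal growth factor, rose from 108 TPM to 501 TPM (4.65-fold higher, 4.46 to 4.86). H19, a noncoding RNA, rose from 39.8 TPM to 166 TPM (4.18-fold higher, 3.89 to 4.49). The imprinted list had 6 genes in both tables, these 2 higher and 4 neither. Peg10, a retrotransposon-derived gene, went from 431 TPM to 592 TPM (1.37-fold higher, 1.34 to 1.41). Igf2r, a receptor that clears Igf2, went from 28.2 TPM to 48.1 TPM (1.71-fold higher, 1.55 to 1.88), and Peg3, a zinc finger gene, from 54.1 TPM to 37.4 TPM (1.45-fold lower, 1.33 to 1.58).

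Cell cycle, biosynthesis and stress genes that were in both tables stayed near level. The 3 cell cycle genes went from 56.3 TPM to 76.8 TPM (Plk1), from 14.4 TPM to 18.8 TPM (Ccne1) and from 137 TPM to 168 TPM (Ccnd2), each less than 1.5-fold. There were 11 cell cycle genes in the day 4 table alone and 4 in the day 7 table alone, and all 15 of them were below day 1. None of 6 sterol and amino acid synthesis genes in both tables passed 2-fold, their median log2 fold being 0.07. Of 3 immediate early and heat shock genes, Egr1 was higher. Lrp2 was the one endocytosis gene in both tables, from 5.63 TPM to 7.54 TPM (1.34-fold higher, 1.06 to 1.69).

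Several of the named genes belong to no list. Tnfrsf12a, a receptor of the TNF family, rose from 1.71 TPM to 22.8 TPM (13.4-fold higher, 9.68 to 18.9), and Mbnl1, a splicing regulator of muscle, from 2.09 TPM to 23.2 TPM (11.1-fold higher, 8.30 to 15.2). The matricellular protein gene Sparcl1 rose from 5.37 TPM to 40.2 TPM (7.48-fold higher, 6.21 to 9.08). Among the falls, Amph, a membrane-bending protein of synaptic endocytosis, went from 79.7 TPM to 18.2 TPM (4.39-fold lower, 3.95 to 4.89). Dennd2c, whose product belongs to a family of Rab regulators, went from 27.98 TPM to 6.38 TPM (4.38-fold lower, 3.67 to 5.27). The sphingolipid receptor gene S1pr3 went from 26.7 TPM to 6.34 TPM (4.21-fold lower, 3.51 to 5.07), and the lipoprotein receptor gene Vldlr from 37.7 TPM to 9.42 TPM (4.00-fold lower, 3.45 to 4.66). Tnfrsf12a, Mbnl1 and S1pr3 are among the genes on opposite sides of day 1, for which the join sets at least 4-fold.

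After day 7, most genes that could be followed stayed within 2-fold to day 10. The higher and lower genes did so less often than the others. Of the 88 higher genes, 81 were in the day 10 table: 11 rose again by at least 2-fold, 10 fell by that much and 60 did neither. Of the 84 lower genes, 61 were in the day 10 table, with 8 higher, 7 lower and 46 neither. Of the 655 others, 509 were in the day 10 table, with 28 higher, 27 lower and 454 neither. That table thus held 92.0% of the higher but 72.6% of the lower genes, and the missing ones have no value at day 10. Over all joined genes in the day 10 table, 651 with a fold, 7.22% were higher and 6.76% were lower at day 10 than at day 7. The median fold from day 7 to day 10 was 1.04 for the higher genes, 1.02 for the lower genes and 1.08 for the others. Of the 5 days, day 7 had the highest level of Tagln, Acta2 and Hoxc8, which stood at 60.6, 63.1 and 12.1 TPM at day 10. Igf2 and H19 kept rising, to 2147 and 697 TPM at day 10 and 3243 and 1187 TPM at day 14. Tbx6 fell further, to 19.4 TPM at day 10. Mesp1, Msgn1, Lefty2 and Dll3 are in neither the day 10 nor the day 14 table.

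Of 32 pathways named in the deposited tables with at least 10 joined genes, 23 held both higher and lower genes, 7 held lower genes only and 2 held neither. Of the 405 joined genes with a pathway, 38 were higher and 44 lower. Of 25 genes of MAPK signalling, 3 were higher and 5 lower. For focal adhesion these were 3 and 4 of 32 genes, for regulation of the actin cytoskeleton 4 and 4 of 26, for axon guidance 3 and 2 of 28, and for endocytosis 1 and 4 of 21. Of 11 genes of phosphatidylinositol signalling, 0 were higher and 3 lower, and of 17 of ECM-receptor interaction, 0 were higher and 1 lower. Of 15 purine metabolism genes, 0 were higher and 0 were lower.

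The larger part of each table could not be compared. There were 952 genes in the day 4 table only, 416 above and 536 below day 1, and 890 in the day 7 table only, 598 above and 292 below day 1. A gene that only one table holds has no value on the other day and is not shown to have changed.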

How the data were processed

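Tag libraries came from Illumina's kit for DGE profiling (version 2.1B, per the labels' protocols), and the submitters' processing notes name build mm9. The aligner, the authors' test and the handling of strand and of ambiguous tags were not given in the sources used here. Deposited TPM and the authors' mean raw tag counts per day were used. The deposited log2 ratio to day 1 served only to show that all genes lay at least 2-fold from it. The deposited P-Value and FDR columns were taken as a score and not used, since FDR was above 1 for 56.5% of day 4 and 60.2% of day 7 genes. The design text says that the tables were filtered by FDR, and they hold 0 columns of single libraries.

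The day 4 and day 7 tables were joined on the gene column. Mean counts times 4 libraries were whole within their 2 decimals for 100% of genes and gave tag sums. A deposited TPM of 0.01 was read as 0, and 0 tags were set to a floor of 3 tags in folds. Totals came from counts over TPM for genes with means above 1000. Intervals are exact Clopper-Pearson at 95% and cover counting error only. A simulation of day 7 over day 4 on 827 genes drew tags with counting error only, which is what the intervals assume. In it, 96.9% of 3-fold and 100% of 6-fold changes passed 2-fold, and 94.7% of intervals held the true fold. It held no spread between libraries and no filter against day 1, so it checks the arithmetic and not the calls.

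The named genes are the 12 largest rises and the 12 largest falls at or above the median of the higher level, Tagln, Flnc and Tbx6, and up to 6 members with the largest change of each of 28 lists. Other genes in the text were chosen after their values were seen. Of 837 listed symbols, 147 were in both tables. The genes and lists were chosen with earlier results of these data known. Promoter windows came from RefSeq, build GRCm38.p6. The tools were scipy 1.17.1, numpy 2.4.6, pandas 2.3.3 and matplotlib 3.10.9 under Python 3.11.15.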

Additional observations from a re-analysis of the deposited data

How the results depend on the processing

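No paired analysis was possible because the tables give 1 mean per day and no value of a single library, and for the same reason no replicate could be left out. Of the alternatives, a limit of 1.5-fold gave 167 higher and 176 lower genes and a limit of 4-fold gave 28 and 14. Requiring the whole 95% interval beyond 2-fold gave 56 higher and 61 lower genes, and keeping genes at or above the median abundance gave 59 and 49. Under the deposited TPM, centring on the median fold, log2(TPM + 1), 1 entry per symbol and, added after seeing the data, leaving out genes on opposite sides of day 1, there were 76 to 88 higher and 70 to 87 lower genes. Of 123 named genes, 6 no longer passed 2-fold with log2(TPM + 1): Lamb1, Hand1, Snai2, Neurod1, Eno3 and Hoxa4. Under the 3 alternatives tried on the named genes 0 changed sign, which says little. All 3 start from the same pooled counts, and log2(TPM + 1) cannot change a sign. With the abundance limit 5 of 56 list counts moved by over 1.5 times: lateral plate higher from 4 to 2, neural lower from 3 to 1, FGF lower from 2 to 1, BMP and Nodal lower from 2 to 1 and Hox groups 1 to 4 higher from 2 to 1. Depth limits genes of few tags: Nexn rests on 9 tags at day 4.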

Other observations

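Genes outside the lists, chosen after their values were seen, were also higher at day 7. The chromatin protein gene Hmga2, known from fetal growth, rose from 114 TPM to 238 TPM (2.08-fold higher, 1.99 to 2.18). The imprinted gene Peg12 rose from 46.5 TPM to 133 TPM (2.86-fold higher, 2.67 to 3.06), a gene of the imprinted domain that also holds Ndn, which stood at 147 TPM in the day 7 table only. Zfp503, a zinc finger repressor, rose from 17.9 TPM to 51.7 TPM (2.89-fold higher, 2.58 to 3.23) and stood at 166 TPM at day 10. The mesenchymal cadherin gene Cdh11 rose from 12.2 TPM to 49.2 TPM (4.04-fold higher, 3.54 to 4.61), and Tshz1, a zinc finger gene of the trunk, from 15.5 TPM to 80.3 TPM (5.17-fold higher, 4.62 to 5.81). Among the abundant genes that stayed within 2-fold, the proteoglycan gene Gpc3 went from 1246 TPM to 778 TPM (1.601-fold lower, 1.57 to 1.63).

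Lower genes outside the lists were of varied roles, and were also chosen after their values were seen. The cyclin gene Ccng2 fell from 57.1 TPM to 20.4 TPM (2.80-fold lower, 2.52 to 3.11), Ypel3 from 61.4 TPM to 23.9 TPM (2.57-fold lower, 2.33 to 2.84), and the transcription factor gene Klf15 from 27.6 TPM to 12.7 TPM (2.17-fold lower, 1.89 to 2.49). Carbonic anhydrase 3, Car3, fell from 127 TPM to 39.7 TPM (3.19-fold lower, 2.96 to 3.44), and the amino acid transporter gene Slc7a2 from 36.6 TPM to 13.2 TPM (2.77-fold lower, 2.43 to 3.16). The membrane repair gene Dysf fell from 41.5 TPM to 13.6 TPM (3.04-fold lower, 2.68 to 3.47), and the prostaglandin synthase gene Ptgds from 15.1 TPM to 3.68 TPM (4.11-fold lower, 3.24 to 5.27).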
